A study of Mus musculus with 50 samples.

Results

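Radiation given alone was examined in primary p53/MCA sarcomas of the mouse, by comparing 8 tumors that received 20 Gy and an isotype control antibody with 8 tumors that received 0 Gy and the same antibody. Members were chosen by their labels (primary tumor, isotype, dose), and these 16 libraries are part of a series of 50. All mice were of the 129/SvJae strain and carried Trp53 fl/fl alleles. At 6 to 10 weeks of age the gastrocnemius muscle was injected with an adenovirus that expresses Cre recombinase, which deletes Trp53 in the cells it enters, and then with 300 µg of the carcinogen 3-methylcholanthrene (MCA). Each tumor therefore arose in its own host, and the host cells that the virus did not reach, including the infiltrating blood cells, keep an intact Trp53 gene. When a tumor reached about 150 mm3 the mouse received 200 µg of isotype antibody, immediately followed by 0 or 20 Gy, and the tumor was taken 3 days later. The radiation field covered the whole hind limb, so that tissue around the tumor was also exposed. RNA of the whole tumor was sequenced, and the results are counts of reads per gene. The rest of the series holds the same doses with an antibody against the checkpoint receptor PD-1 (8 and 8 primary tumors), the matching transplant tumors and 2 libraries of the line 402230, which entered no main comparison.

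Ionizing radiation breaks both strands of DNA. In cells with an intact Trp53 gene the p53 protein then switches on Cdkn1a, Mdm2 and other targets that halt the cell cycle or start apoptosis, whereas cells without p53 lack this arrest and can enter mitosis with damaged chromosomes. DNA that reaches the cytosol is sensed by cGAS and STING, and RNA by RIG-I and MDA5, which induce interferon-β through IRF3. Type I interferon signals through IFNAR1 and IFNAR2, JAK1 and TYK2 to a factor that includes STAT2 and IRF9 and binds the interferon-stimulated response element in promoters, whereas interferon-γ from T and NK cells acts on guanylate binding proteins, MHC genes and the CXCR3 chemokines. Dying cells, interferons and chemokines in turn draw monocytes and other leukocytes into irradiated tissue.

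Total counts per library ran from 37743696 to 49181237 in the untreated and from 31810461 to 46501213 in the irradiated tumors. Trp53 itself, the deleted gene, was at 20.2 to 28 CPM (counts per 1000000 of the TMM-scaled library size; median 25) in untreated and at 24.1 to 60.7 CPM (median 28.9) in irradiated tumors, but a count per gene does not show the floxed exons, and the tumors hold undeleted host cells. Trp53 was called higher after 20 Gy (edgeR adjusted p 0.0343), and that call was lost in 9 of 26 alternative settings. Its log2 fold change ran from 0.37 to 0.63 over these settings. The Y-linked gene Ddx3y was above 1 CPM in 3 untreated and 6 irradiated libraries, so the sexes were not balanced over dose. Genes of mature skeletal muscle varied widely in both groups: Acta1, the actin of muscle fibers, ran from 12.4 to 1381 CPM in untreated and from 67.9 to 10166 CPM in irradiated tumors. Fits with the level of the muscle genes, or with Ddx3y above 1 CPM, as a covariate called 3401 and 3459 genes. In whole tumors, fewer cells of a type and less RNA per cell cannot be told apart.

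Of 37469 genes in the table, 19327 passed the filter on low counts and were tested in one edgeR quasi-likelihood fit, with p-values adjusted over all of them (called: adjusted p under 0.05). After 20 Gy 1776 genes were higher (9.19% of those tested) and 1758 were lower (9.1%). A fit of the 16 tumors alone called 1403 genes higher and 751 lower. The changes were not alike in size: the median log2 fold change was 1.42 among the higher and -0.60 among the lower genes, beside -0.013 over all genes. In 280 genes (1.45%) each of the 8 irradiated tumors lay above every untreated tumor, and in 79 genes (0.409%) each lay below. Protein-coding genes made up 1312 of the higher and 1680 of the lower genes.

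**Figure D1:**
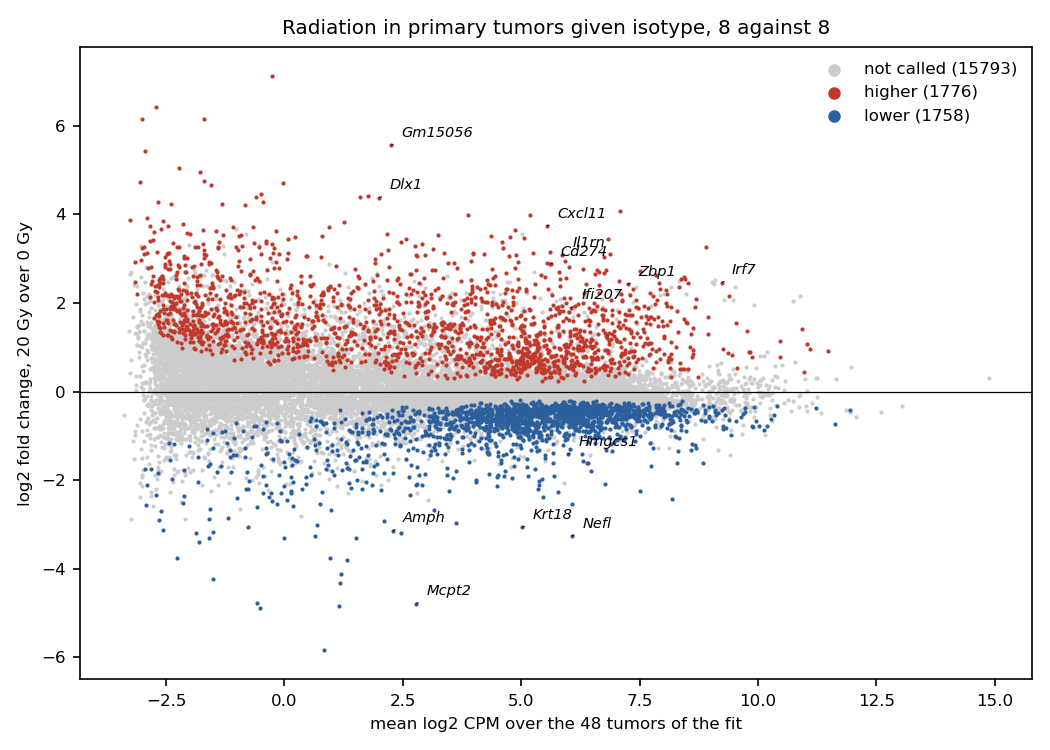
Log2 fold change at 20 Gy over 0 Gy (y axis) against mean log2 CPM over the tumors of the fit (x axis) for the 19327 genes tested, one point per gene, with the 1776 higher genes in red, the 1758 lower genes in blue and the rest in grey. Higher genes reach further from 0 than lower genes, with median log2 fold changes of 1.42 and -0.60.

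The genes with the smallest p-values had little spread within groups. Ifi207, a member of the PYHIN family of interferon-inducible DNA-binding proteins, was at 24 to 34.8 CPM (median 30.9) in untreated and at 91.9 to 138.99 CPM (median 103.2) in irradiated tumors (log2 fold change 1.89, SE 0.18, edgeR adjusted p 6.23e-09). Il1rn, the secreted antagonist of the interleukin-1 receptor, lay between 4.6 and 17.5 CPM (median 7.06) without and between 37.3 and 117.95 CPM (median 66.4) with radiation (log2 fold change 3.07, SE 0.34, edgeR adjusted p 6.87e-08). Herc6, an interferon-induced ligase of ISG15, ran from 3.34 to 23.1 CPM (median 8.13) in untreated and from 35.1 to 80.5 CPM (median 49.4) in irradiated tumors (log2 fold change 2.30, SE 0.27, edgeR adjusted p 2.89e-07). The 8 irradiated tumors lay above all untreated tumors for each of these genes. Rnf31, the catalytic subunit of the linear ubiquitin ligase LUBAC, and Mocos, which sulfurates the molybdenum cofactor, changed less (0.81 and 1.36 on the log2 scale) with the same lack of overlap. Cd300lf, an inhibitory receptor of myeloid cells, rose by 2.91 and overlapped with the untreated tumors in 1 library.

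Among the lower genes with the smallest p-values, Stard4, which carries cholesterol between membranes, was at 38.5 to 70.5 CPM (median 55.7) in untreated and at 25.8 to 31.8 CPM (median 28.8) in irradiated tumors (log2 fold change -0.92, SE 0.12, edgeR adjusted p 7.64e-07). Sfxn1, a mitochondrial serine transporter, lay between 47.6 and 72.7 CPM (median 59.4) without and between 25.8 and 37.3 CPM (median 29.4) with radiation (log2 fold change -1.02, SE 0.14, edgeR adjusted p 4.23e-06). Rcn2, a calcium-binding protein of the endoplasmic reticulum, changed by -0.80 and Depdc1b, a protein of dividing cells, by -1.37 on the log2 scale. For these 4 genes every irradiated tumor lay below every untreated tumor. Mtch1, an insertase of the outer mitochondrial membrane, Eif4g2, a translation initiation factor, Mapk3, the kinase ERK1, and Usp46, a deubiquitinase, fell by less than 2-fold (-0.83, -0.67, -0.70 and -0.89), and 6 or 7 of the 8 irradiated tumors lay below all untreated tumors.

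By size of change the order was different. Gm15056, annotated as a protein-coding gene, was listed at 0 to 0.238 CPM in untreated and at 0.182 to 10.6 CPM in irradiated tumors (log2 fold change 5.56, SE 0.996, edgeR adjusted p 9.54e-05). Gbp10, an interferon-inducible GTPase, rose by 3.98, Tarm1, an activating receptor of neutrophils and macrophages, by 3.55 and Ubd, a ubiquitin-like modifier, by 3.64. Saa3, an acute-phase protein, rose by 3.45, with a wide spread: it ran from 0.432 to 132.2 CPM (median 2.45) in untreated and from 8.19 to 546 CPM (median 200.1) in irradiated tumors. Dlx1, a homeobox gene, was called higher on 15.6 CPM in 1 irradiated library, where the other 7 lay between 0.02 and 0.777 CPM. Without that library, irradiated replicate 8, its log2 fold change was 1.15 (edgeR adjusted p 0.406).

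Downward, the change was largest for Mcpt2, a protease of mast cells, which was at 1.95 to 52.9 CPM (median 4.58) in untreated and at 0.0227 to 1.47 CPM (median 0.211) in irradiated tumors (log2 fold change -4.79, SE 0.79, edgeR adjusted p 3.56e-05). Each irradiated tumor lay below the lowest untreated tumor. Amph, a membrane-curving protein of nerve and muscle, fell by 3.14 on the log2 scale, Mest, an imprinted gene of mesoderm, by 2.54, Fcrls, an Fc receptor-like protein of resident macrophages, by 2.26 and Nefl, the light neurofilament chain, by 3.27. Krt18, an epithelial keratin, fell by 3.07 from a median of 16.9 to 3.74 CPM, and the untreated tumors alone spanned 2.55 to 209.6 CPM. Without untreated replicate 3, the highest of them, the log2 fold change of Krt18 was -1.74 (edgeR adjusted p 0.051).

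Of the interferon ligands, receptors and kinases tested, 6 of 11 rose and none fell. Ifnb1, which encodes interferon-β, was close to the limit of detection: it lay between 0 and 0.574 CPM (median 0.0618) without and between 0.16 and 1.29 CPM (median 0.55) with radiation (log2 fold change 2.52, SE 0.68, edgeR adjusted p 0.00723). It was higher in irradiated tumors as a group, but 4 of them lay within the untreated range. Ifng was as sparse, at medians of 0.0688 and 0.615 CPM (log2 fold change 2.27, SE 0.74, edgeR adjusted p 0.0259), and its call was lost without untreated replicate 1, untreated replicate 8 or irradiated replicate 5 (edgeR adjusted p 0.0513, 0.0505 and 0.141). The listed interferon-α and interferon-λ genes did not pass the filter or were not matched in the table, so that no value is given for them. Ifnar2, a chain of the type I receptor, rose by 0.53, the receptor chain Il10rb by 0.60, and the kinases Tyk2 and Jak2 by 0.52 and 0.42. Ifnar1, Ifngr1, Ifngr2 and Jak1 did not pass the test.

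Sensors of nucleic acid rose in most cases, with 13 of 17 higher, none lower and a median log2 fold change of 1.24. Zbp1, a sensor of left-handed nucleic acid that can start necroptosis, ran from 14.3 to 139.1 CPM (median 37.7) in untreated and from 171 to 298 CPM (median 259.8) in irradiated tumors (log2 fold change 2.43, SE 0.34, edgeR adjusted p 4.46e-06). All irradiated tumors exceeded the highest untreated tumor. The RNA helicases Ifih1 (MDA5), Ddx58 (RIG-I) and Dhx58 (LGP2) rose by 1.496, 1.24 and 1.83, with 4, 4 and 6 irradiated tumors above the untreated range. Cgas, the cytosolic DNA sensor, rose less (log2 fold change 0.54, SE 0.16, edgeR adjusted p 0.0147), from a median of 17.6 to 22.1 CPM. Adar, which edits double-stranded RNA, and Eif2ak2, which stops translation when it binds such RNA, rose by 1.14 and 0.99. The adaptors that relay these sensors, Tmem173 (STING) and Mavs, the kinase Tbk1 and the factor Irf3 did not pass the test.

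All 30 listed genes induced by type I interferon were higher, with a median log2 fold change of 2.02. Irf7, the factor that amplifies interferon production, was at 50.5 to 739 CPM (median 132.2) in untreated and at 749 to 1306 CPM (median 1135) in irradiated tumors (log2 fold change 2.46, SE 0.39, edgeR adjusted p 2.20e-05), without overlap between the groups. Oas3, which makes the oligoadenylate that activates RNase L, lay between 11.7 and 94.1 CPM (median 19.2) without and between 104.7 and 299 CPM (median 185) with radiation (log2 fold change 2.65, SE 0.39, edgeR adjusted p 6.93e-06), and Oas2 rose by 2.39. Stat2, a subunit of the factor that binds interferon response elements, rose by 1.72, and Irf9, another subunit, by 1.03. In many other genes of the list the groups overlapped, since untreated replicate 4 held interferon-stimulated transcripts at a level close to that of irradiated tumors. Isg15, a ubiquitin-like modifier, ran from 24.1 to 368 CPM (median 69.2) in untreated and from 173 to 842 CPM (median 464) in irradiated tumors, and the highest untreated value was that of replicate 4. Mx1, a GTPase against influenza viruses, rose by 2.56, Rsad2 (viperin) by 2.42, Ifit3 by 2.28 and Usp18, which removes ISG15, by 1.89. Over the list, 6 genes had all irradiated above all untreated tumors. Without untreated replicate 4, 30 of the genes were called.

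To show what the promoters of these genes hold, the 5 called genes of the list with the largest changes whose element lay in the window are given, as the 150 bases before the RefSeq start site (build GRCm38.p6, read 5′ to 3′ on the strand of the gene). Capitals mark matches to the interferon-stimulated response element, searched as GAAANNGAAA on both strands, with overlapping matches run together.
Oas3, chr5:120777660-120777809, minus strand: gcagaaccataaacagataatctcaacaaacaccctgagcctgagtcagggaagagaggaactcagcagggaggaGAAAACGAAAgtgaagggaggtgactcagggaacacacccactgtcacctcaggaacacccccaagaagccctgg
Rsad2, chr12:26456453-26456602, minus strand: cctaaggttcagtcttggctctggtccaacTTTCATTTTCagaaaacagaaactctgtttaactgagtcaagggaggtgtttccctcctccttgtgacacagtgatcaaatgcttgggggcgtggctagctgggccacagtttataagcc
Isg15, chr4:156200819-156200968, minus strand: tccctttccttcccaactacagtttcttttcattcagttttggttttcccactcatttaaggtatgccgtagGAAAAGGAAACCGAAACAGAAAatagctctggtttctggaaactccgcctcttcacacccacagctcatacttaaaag
Ifit3, chr19:34583379-34583528, plus strand: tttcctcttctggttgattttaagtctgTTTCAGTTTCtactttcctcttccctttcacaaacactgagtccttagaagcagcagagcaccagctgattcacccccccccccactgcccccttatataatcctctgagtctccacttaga
Bst2, chr8:71537473-71537622, minus strand: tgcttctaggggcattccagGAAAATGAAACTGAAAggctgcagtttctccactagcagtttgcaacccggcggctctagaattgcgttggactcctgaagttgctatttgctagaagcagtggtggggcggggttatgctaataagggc
Isg15 holds 3 overlapping matches and Bst2 2, and in Rsad2 and Ifit3 the element lies on the opposite strand. Bst2, or tetherin, which holds enveloped viruses at the cell surface, rose by 2.09. In windows from 250 bases before to 50 bases after the start, the element was present in 10 of the 22 genes of the list that had a promoter, or 45.5%, and in 3.99% of all 27025 genes with a promoter. It was present in 12.3% of the genes higher after 20 Gy and in 2.39% of those lower. A match describes letters and not a bound site.

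Genes listed as inducible by interferon-γ rose as well, in 21 of 23 cases, with a median of 2.31. In 16 genes all irradiated tumors exceeded all untreated tumors. Gbp5, a guanylate binding protein that acts at pathogen membranes, was at 7.67 to 29.7 CPM (median 14.5) in untreated and at 82.4 to 228 CPM (median 99.4) in irradiated tumors (log2 fold change 2.76, SE 0.38, edgeR adjusted p 2.98e-06). Irgm1, an immunity-related GTPase, rose by 2.06, and Nlrc5, the transactivator of MHC class I genes, by 1.73. Irf1, the factor that Nlrc5 and Gbp genes depend on, lay between 56.7 and 124.04 CPM (median 87.7) without and between 135.2 and 499 CPM (median 212) with radiation (log2 fold change 1.49, SE 0.26, edgeR adjusted p 5.28e-05). Ido1, which degrades tryptophan, stayed below 3 CPM in every tumor and rose by 2.82. Ciita, the transactivator of MHC class II genes, was called neither way (log2 fold change 1.16, SE 0.58, edgeR adjusted p 0.16). The interferon-stimulated response element was found in 11 of 17 promoters of this list, beside 10 of 22 of the type I list. Whether an interferon raised these genes, and which one, was not tested.

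The Schlafen genes, which are induced by interferon and restrict growth of leukocytes, overlapped little between the groups: 7 of 7 rose, 6 of them without overlap. Slfn8 ran from 3.06 to 9.02 CPM (median 5.69) in untreated and from 17.4 to 28.1 CPM (median 21.4) in irradiated tumors (log2 fold change 1.96, SE 0.20, edgeR adjusted p 1.43e-08). Slfn1 rose by 2.95, Slfn2 by 2.19 and Slfn5 by 1.72. These genes lie side by side on chr11:82951349-83215154, and all 10 genes tested between the first and the last were higher. The same held for other families that share a locus. On chr1:173350879-173942672, 13 of 13 tested genes from Aim2 to Ifi203 were higher, on chr19:34550694-34650009 6 of 6 Ifit genes and relatives, and on chr5:120730333-120907521 6 of 6 genes of the Oas cluster. Members of these families are near-identical in places, so that reads may be shared among them and their single values are uncertain. The genome coordinates are of GRCm38 from GENCODE.

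**Figure D2:**
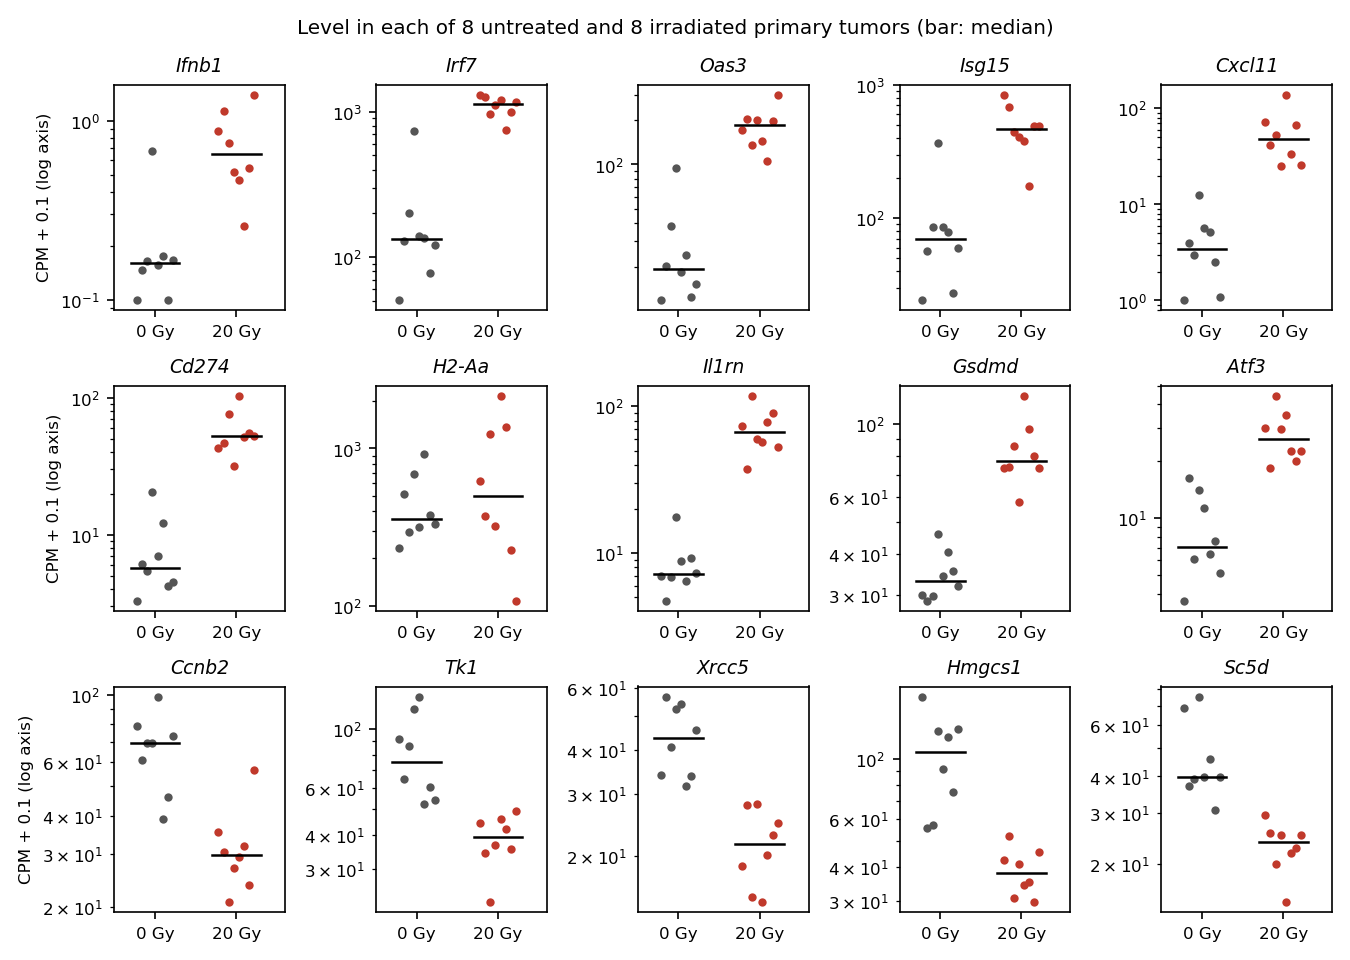
CPM of 15 genes in each tumor on a log axis (0.1 CPM added so that 0 can be drawn), one panel per gene, with 8 untreated tumors in grey, 8 irradiated tumors in red, and a bar at the median of each group. Irf7, Oas3, Cxcl11, Cd274, Il1rn, Gsdmd and Atf3 do not overlap upward and Hmgcs1, Sc5d, Tk1 and Xrcc5 do not overlap downward, whereas Ifnb1, Isg15, H2-Aa and Ccnb2 do.

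Of the genes of the MHC class I pathway, 18 of 21 rose, with a median of 1.19. The peptide transporter subunit Tap1 was at 49.5 to 224 CPM (median 70.8) in untreated and at 209 to 419.5 CPM (median 252) in irradiated tumors (log2 fold change 1.64, SE 0.30, edgeR adjusted p 0.000124). The loading factor Tapbp rose by 1.30, the immunoproteasome subunits Psmb8 and Psmb9 by 1.48 and 1.62, and the nonclassical molecule H2-T23 by 1.99. The heavy chains and B2m, which were abundant in untreated tumors already, changed less: H2-K1 rose by 1.40, H2-D1 by 1.07 and B2m by 0.96. H2-K1 lay between 416 and 2813 CPM (median 642) without and between 1421 and 3522 CPM (median 2294) with radiation, and 3 irradiated tumors exceeded the untreated range. The H2 genes are polymorphic and alike, and their reads were counted against a reference of another strain. The general chaperones Calr, Canx and Pdia3 of the same list did not pass the test.

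MHC class II genes mark macrophages, dendritic cells and B cells. Of 10, 1 was called (H2-DMb1, log2 fold change 1.25, SE 0.43, edgeR adjusted p 0.0367), and that call was lost in 14 of 26 alternative settings. H2-Aa ran from 234 to 919 CPM (median 354) in untreated and from 107.05 to 2163 CPM (median 499.9) in irradiated tumors (log2 fold change 0.81, SE 0.54, edgeR adjusted p 0.302). The mean log2 level of the list had an SD of 0.60 in untreated and 1.35 in irradiated tumors, and irradiated replicate 5 was the highest and replicate 8 the lowest of all 16. Replicate 8 was also the irradiated tumor with the highest mean level of type I interferon-stimulated genes and the lowest mean level of T cell markers, and replicate 5 had the highest level of T cell, NK and B cell markers. The part of these cells in the result was not tested.

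Chemokines rose in 19 of 26 cases and fell in none, with a median of 2.27. Cxcl11, annotated as a polymorphic pseudogene, is one of the ligands of CXCR3 on T cells, and it was at 0.908 to 12.3 CPM (median 3.37) in untreated and at 24.8 to 138.6 CPM (median 47.6) in irradiated tumors (log2 fold change 3.74, SE 0.60, edgeR adjusted p 2.16e-05). Cxcl10, another of these ligands, rose by 2.54. Ccl3, Ccl4 and Ccl5, which draw T cells and monocytes, rose by 3.37, 2.75 and 2.74, each without overlap, and Ccl5 lay between 10.5 and 72.9 CPM (median 26.2) without and between 106.7 and 311 CPM (median 190.0) with radiation. The ligands of CCR2, which guide monocytes, rose from higher starting levels: Ccl7 ran from 28.4 to 203 CPM (median 56.4) in untreated and from 143.7 to 714 CPM (median 448) in irradiated tumors (log2 fold change 2.63, SE 0.44, edgeR adjusted p 3.82e-05), while Ccl2 rose by 1.91 and Ccl12 by 1.31. The 7 chemokines that did not pass the test were Cxcl12 and Cx3cl1, which stroma produces at steady state, and Ccl17, Ccl19, Cxcl1, Cxcl5 and Cxcl13. On chr11:82035571-82116799 and on chr11:83525778-83664683, all 5 and all 6 genes tested in each stretch were higher.

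Checkpoint and costimulatory genes rose in 10 of 17 cases, with a median of 1.19. Cd274 (PD-L1), through which other cells restrain T cells that carry PD-1, was at 3.18 to 20.5 CPM (median 5.67) in untreated and at 31.8 to 103.3 CPM (median 52.2) in irradiated tumors (log2 fold change 2.88, SE 0.40, edgeR adjusted p 2.98e-06), and each irradiated tumor exceeded the highest untreated one. The other PD-1 ligand, Pdcd1lg2, rose by 2.25 at levels of at most 3.1 CPM. The costimulatory ligands Cd80 and Cd86 rose by 2.19 and 1.49, and the receptors Lag3 and Havcr2 (TIM-3), which T cells and also myeloid cells express, by 1.54 and 1.12. Entpd1, or CD39, which breaks down extracellular ATP, was the member that fell (log2 fold change -1.05, SE 0.26, edgeR adjusted p 0.00424), from a median of 140.1 to 77.4 CPM. Pdcd1, which encodes PD-1, Tigit, Icos, Tnfrsf9 and Vsir did not pass the test.

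Cytokines of the interleukin-1, interleukin-6 and TNF group rose in 15 of 21 cases, with a median of 1.63. Tnf lay between 0.801 and 2.37 CPM (median 1.22) without and between 3.13 and 10.6 CPM (median 6.9) with radiation (log2 fold change 2.33, SE 0.39, edgeR adjusted p 3.90e-05), without overlap. Il27, an interleukin-12 relative made by macrophages, rose by 2.60 and Il10, which restrains macrophages, by 1.80. Il6 rose by 2.52, or by 1.72 without irradiated replicate 3 (edgeR adjusted p 0.0595). Il1b ran from 2.48 to 46 CPM (median 11.7) in untreated and from 3.7 to 192 CPM (median 33.6) in irradiated tumors (log2 fold change 1.81, SE 0.61, edgeR adjusted p 0.0305), and its call was lost without untreated replicate 1, 2 or 8 or irradiated replicate 3 (edgeR adjusted p 0.0515 to 0.195). Antagonists of these cytokines rose with them: next to Il1rn, Il18bp, which neutralizes interleukin-18, was at 4.43 to 16.8 CPM (median 8.84) in untreated and at 49.1 to 120.2 CPM (median 63.3) in irradiated tumors (log2 fold change 2.88, SE 0.35, edgeR adjusted p 3.54e-07).

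Fc receptors and genes of phagocytosis rose in 11 of 19 cases. Fcgr4, a receptor for IgG on monocytes and macrophages, lay between 6.84 and 29.1 CPM (median 12.1) without and between 42.2 and 209 CPM (median 74.4) with radiation (log2 fold change 2.70, SE 0.44, edgeR adjusted p 2.94e-05), and Fcgr1, the high-affinity receptor, rose by 1.73, both without overlap. The inhibitory receptor Fcgr2b rose by 0.995 and Fcgr3 by 1.41, and the 3 receptor genes Fcgr2b, Fcgr3 and Fcgr4 are neighbors on chr1:170958617-171064935. Of the complement genes, 9 of 13 rose. Factor B (Cfb), of the alternative pathway, ran from 0.621 to 5.58 CPM (median 1.69) in untreated and from 6.47 to 16.9 CPM (median 12.8) in irradiated tumors (log2 fold change 2.56, SE 0.42, edgeR adjusted p 3.18e-05). C3, the central component, rose by 2.45, its receptor gene C3ar1 by 1.497 and the inhibitor Serping1 by 1.92, whereas C5ar1, the receptor for the fragment C5a, rose by 0.74.

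Targets of p53 rose in 11 of 25 cases with a median of 0.38, which is small beside that of the interferon lists. Cdkn1a, the inhibitor that halts the cycle, rose by 2.21 without overlap, and Gdf15, a stress-induced cytokine, was at 0.696 to 4.72 CPM (median 1.85) in untreated and at 5.18 to 10.7 CPM (median 7.4) in irradiated tumors (log2 fold change 1.87, SE 0.38, edgeR adjusted p 0.000416). Fas, a death receptor, rose by 1.504, Bax, a pore-forming death effector, by 0.72, Trp53inp1 by 0.98 and Mdm2, the ligase that degrades p53, by 0.38. Mdm2 lay between 45.1 and 81.4 CPM (median 61.2) without and between 70.3 and 85.9 CPM (median 82.2) with radiation, so that 4 irradiated tumors lay within the untreated range. Sesn2, a brake on growth signals, rose by 0.83. Bbc3 (PUMA), Zmat3, Phlda3, Eda2r, Sesn1, Btg2, Plk2 and Rrm2b did not pass the test. The mean log2 level of the list did not overlap between the groups, at 4.02 to 4.38 in untreated and 4.61 to 4.99 in irradiated tumors.

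Genes of cell death rose in 15 of 32 cases and fell in none. Gsdmd, the pore protein of pyroptosis, ran from 28.6 to 46.1 CPM (median 33) in untreated and from 57.8 to 122.3 CPM (median 76.9) in irradiated tumors (log2 fold change 1.26, SE 0.16, edgeR adjusted p 6.67e-07). Casp1, which cuts it, rose by 1.56, Casp4, which does so in response to lipopolysaccharide, by 2.07 and Nlrp3, a sensor that recruits Casp1, by 1.24. Tnfsf10, the death ligand TRAIL, rose by 1.63 without overlap. Ripk1, Ripk3 and Casp8, 2 kinases and a protease that act downstream of death receptors, did not pass the test, while Mlkl of the same list was higher.

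Genes of the cell cycle were lower where they were called. Of the genes of G2 and mitosis, 27 of 30 fell, with a median of -0.86, whereas of the genes of S phase and replication 6 of 29 fell, with a median of -0.47. Cdc25c, the phosphatase that releases Cdk1 at the entry into mitosis, was at 9.93 to 22.3 CPM (median 14.8) in untreated and at 3.48 to 8.51 CPM (median 6.47) in irradiated tumors (log2 fold change -1.20, SE 0.23, edgeR adjusted p 0.00025). Ccnb2 lay between 39 and 98.5 CPM (median 69.2) without and between 20.7 and 56.7 CPM (median 29.7) with radiation (log2 fold change -1.08, SE 0.22, edgeR adjusted p 0.000569), and 7 irradiated tumors lay below all untreated tumors. Ccna2 changed by -1.02, Plk1 by -1.05, the kinesin Kif11 by -0.98 and Bub1, a kinase of the spindle checkpoint, by -0.94. Cdk1 itself did not pass the test (log2 fold change -0.54, SE 0.26, edgeR adjusted p 0.139). In S phase, Tk1, which salvages thymidine, ran from 52.1 to 131.7 CPM (median 75.3) in untreated and from 22.4 to 49.3 CPM (median 39.3) in irradiated tumors (log2 fold change -1.09, SE 0.26, edgeR adjusted p 0.00243), and Rrm2, a subunit of ribonucleotide reductase, fell by 0.63, while Mcm2, Mcm5, Cdc6, Tyms, Ccne1 and Pcna did not pass the test. Irradiated replicate 8 held the highest and replicate 3 the lowest mean level of both lists among the irradiated tumors. Without replicate 8, 29 genes of G2 and mitosis and 13 of S phase were lower, and without untreated replicate 7, the lowest untreated tumor, 28 and 10. A fit of the 16 tumors alone called 16 genes of G2 and mitosis.

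Of the genes that repair double-strand breaks, 4 of 32 were lower and none was higher, beside 9.1% lower of all genes tested. Xrcc5, which encodes Ku80, the protein that holds broken ends for end joining, was at 31.5 to 56.6 CPM (median 43) in untreated and at 14.7 to 28 CPM (median 21.5) in irradiated tumors (log2 fold change -1.02, SE 0.18, edgeR adjusted p 6.00e-05). Each irradiated tumor lay below the lowest untreated tumor, and the partner gene Xrcc6 (Ku70) did not pass the test (log2 fold change -0.32, SE 0.16, edgeR adjusted p 0.159). H2afx, whose protein marks breaks, fell by 0.78, and Xrcc2 and Mre11a fell by 0.55 and 0.48. Atm and Brca1 did not pass the test. Without irradiated replicate 8, 12 of the list were lower, and without untreated replicate 7 7.

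Genes of cholesterol synthesis and uptake were lower in 24 of 26 cases, with a median of -1.07. Hmgcs1, the first committed enzyme, lay between 55.6 and 169 CPM (median 105.97) without and between 29.5 and 52.1 CPM (median 38) with radiation (log2 fold change -1.41, SE 0.18, edgeR adjusted p 9.85e-07). Idi1 fell by 1.95, Sqle, which makes squalene epoxide, by 1.43 and Sc5d by 1.03. The transcription factor of the pathway Srebf2 fell by 1.09 and its regulator Insig1 by 1.06. The promoter of Hmgcs1, shown as the 150 bases before the start, holds a match to the sterol regulatory element searched as TCACNCCAC on both strands, in capitals.
Hmgcs1, chr13:119690201-119690350, plus strand: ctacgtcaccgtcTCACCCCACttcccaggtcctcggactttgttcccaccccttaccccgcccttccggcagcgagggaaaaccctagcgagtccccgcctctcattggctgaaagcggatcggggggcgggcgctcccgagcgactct
These letters were present in 1 of 18 promoters of the list and in 1.44% of all promoters, in windows from 250 bases before to 50 after the start, and the element is known to vary in its letters.

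Of 11 genes of cholesterol export and of liver X receptors, 3 were called, all higher. The other 8 were not called, and the median of the list was 0.11. Ch25h, which hydroxylates cholesterol and is itself induced by interferon, ran from 4.86 to 29.7 CPM (median 11.2) in untreated and from 23.6 to 84.5 CPM (median 66.2) in irradiated tumors (log2 fold change 2.14, SE 0.44, edgeR adjusted p 0.00059). Nr1h3, the liver X receptor alpha, rose by 1.96 and Abcg1, an exporter, by 1.27, while Abca1 did not pass the test (log2 fold change 0.36, SE 0.25, edgeR adjusted p 0.322). Apoe, Mylip, Lpcat3 and Srebf1 did not pass it either. Fatty acid genes were lower in 10 of 11 cases, with a median of -0.76. Scd2, a desaturase, was at 384 to 834 CPM (median 422) in untreated and at 103.1 to 325 CPM (median 165) in irradiated tumors (log2 fold change -1.34, SE 0.27, edgeR adjusted p 0.000347). Elovl6 and Fads2, which lengthen and desaturate fatty acids, fell by 1.52 and 1.94 and Acly, which makes acetyl-CoA in the cytosol, by 0.75. Fasn, the fatty acid synthase, was the member that did not pass the test (log2 fold change -0.64, SE 0.28, edgeR adjusted p 0.111).

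**Figure D3:**
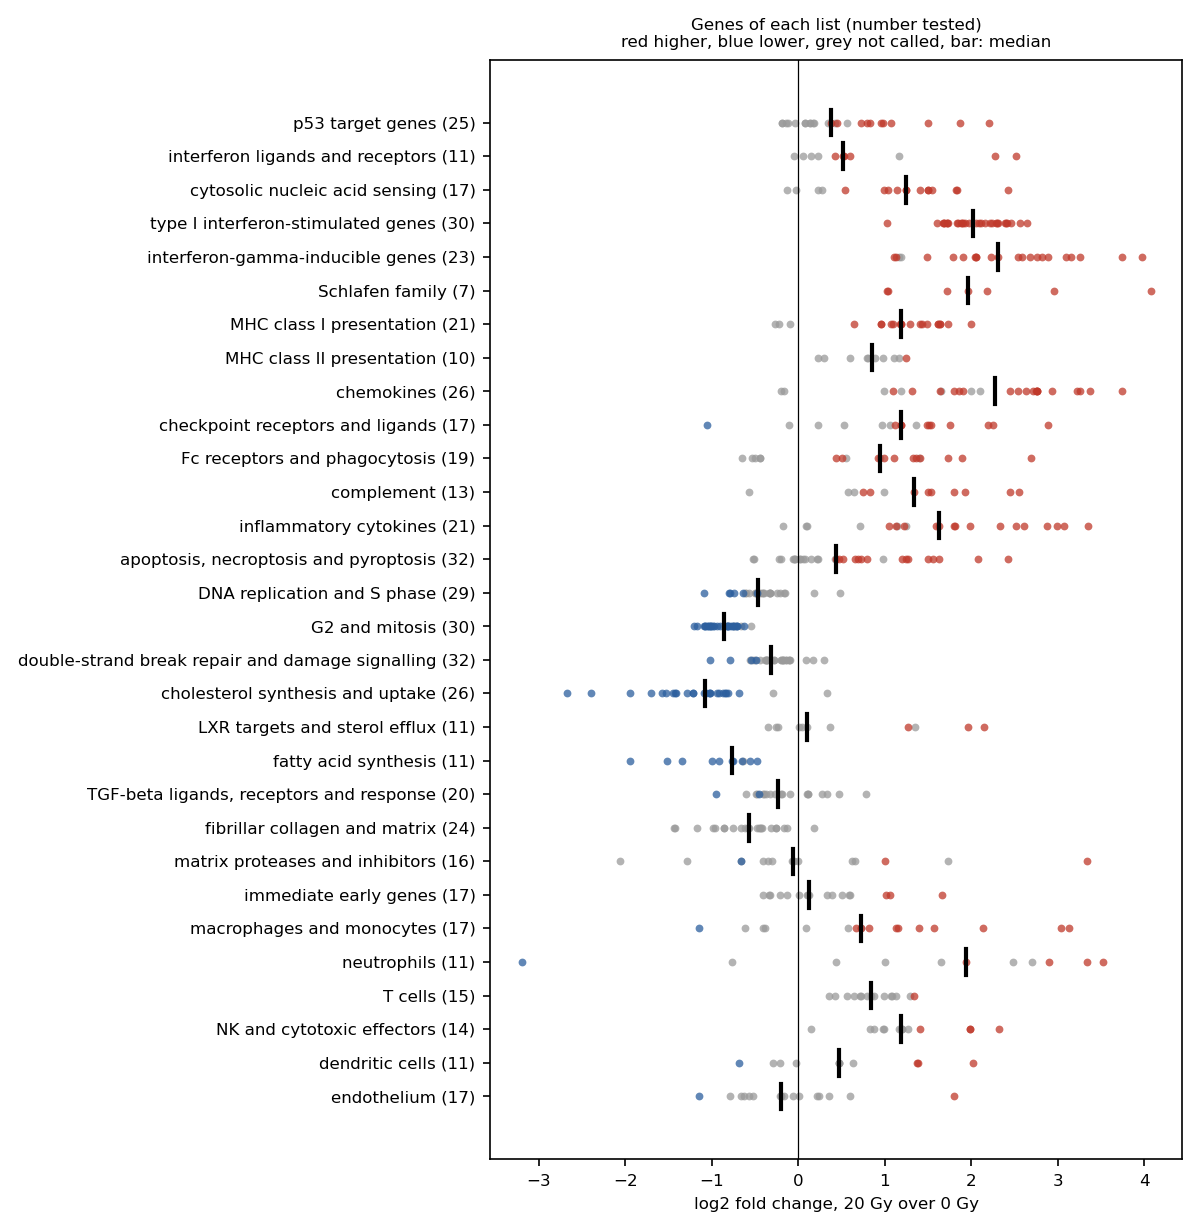
Log2 fold change at 20 Gy over 0 Gy (x axis) of every tested gene of 30 lists (rows), one point per gene, red where called higher, blue where called lower and grey otherwise, with a black bar at the median of the list. The lists of type I interferon-stimulated genes and of Schlafen genes lie to the right of 0 in full, and those of cholesterol synthesis and of G2 and mitosis have all their called genes on the left.

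Calls in lists of tissue structure and stress stand beside 9.19% higher and 9.1% lower of all genes tested. None of 24 matrix genes was called (median -0.57), although Col1a1 spanned 1608 to 11622 CPM in untreated tumors alone. Of 20 genes of the TGF-β response 2 were lower, Tgfb3 (-0.95) and Tgfbr2 (-0.45), and these calls were lost in 18 and 16 of 26 alternative settings. Mmp14, a membrane-bound collagenase, fell by 0.66, whereas Mmp8, the collagenase of neutrophils, rose by 3.34. Of 20 genes of hypoxia and glycolysis, 2 rose, Hk2 (by 0.78) and Pfkfb4 (by 0.79), against 1 to 4 genes under the alternative settings. The call of Hk2 was lost in 15 of 26 alternative settings. Of the immediate early genes, 3 of 17 rose, among them Atf3, a stress-induced repressor, which lay between 3.55 and 16.3 CPM (median 6.92) without and between 18.4 and 44.3 CPM (median 26.1) with radiation (log2 fold change 1.67, SE 0.34, edgeR adjusted p 0.000471). Fth1, the ferritin heavy chain, was the only NRF2 target called of 12 (log2 fold change 0.92, SE 0.23, edgeR adjusted p 0.00425), and up to 3 were called under other settings.

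Counts of called markers of cell types stand beside 9.19% higher and 9.1% lower of all genes tested. Of 17 genes of macrophages and monocytes 10 rose and 1 fell. Genes that monocytes express were among those that rose: Ly6c2 ran from 5.52 to 106.8 CPM (median 15.3) in untreated and from 61.2 to 421 CPM (median 173) in irradiated tumors (log2 fold change 3.03, SE 0.55, edgeR adjusted p 0.000108), and Ccr2 rose by 1.56. Whether monocytes entered the tumors was not tested. Arg1, which breaks down arginine in alternatively activated macrophages, rose by 3.13, with irradiated tumors between 6.32 and 268 CPM. Among broad markers of the class Itgam (CD11b) rose by 0.82, whereas Adgre1 (F4/80) did not pass the test (log2 fold change 0.73, SE 0.31, edgeR adjusted p 0.0914), and Csf1r and Mrc1 had log2 fold changes of -0.39 and -0.61. Cx3cr1, of patrolling monocytes and resident macrophages, fell by 1.14, and that call was lost in 18 of 26 alternative settings. Itgax (CD11c), on dendritic cells and some macrophages, was at 6.03 to 13.3 CPM (median 7.9) in untreated and at 17.6 to 55.7 CPM (median 33.8) in irradiated tumors (log2 fold change 2.02, SE 0.30, edgeR adjusted p 8.92e-06). Of 11 dendritic cell genes 3 rose, Itgax, the transcription factor Batf3 (by 1.37) and the homing receptor Ccr7 (by 1.38), and 1, the actin-bundling Fscn1, fell by 0.68. Without irradiated replicate 5, 1 of the genes was higher. Flt3 and Xcr1 did not pass the test.

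Among lymphocyte markers, 1 of 15 T cell genes, Trbc1, rose by 1.33 (0 to 3 genes under the alternative settings), beside 9.19% higher of all genes tested. Cd3e lay between 1.76 and 7.98 CPM (median 2.56) without and between 1.04 and 13.5 CPM (median 3.87) with radiation (log2 fold change 0.57, SE 0.60, edgeR adjusted p 0.536). Of the NK and cytotoxic genes 4 of 14 rose: the granzymes Gzma and Gzmb by 2.32 and 1.99, the receptor Klrk1 (NKG2D) by 1.99, and the granule protein Nkg7, whose call was lost in 17 of 26 alternative settings, by 1.41. Gzmb ran from 4.81 to 115.6 CPM (median 8.93) in untreated and from 38.4 to 176 CPM (median 72) in irradiated tumors, and untreated replicate 4 again held the highest untreated value. Without that library 11 of the genes were called higher, against 2 without irradiated replicate 5 and 7 without irradiated replicate 8, and of the T cell genes 3 were called without untreated replicate 4. Klrk1 lost its call without irradiated replicate 5 (edgeR adjusted p 0.057). Prf1 and Ncr1 did not pass the test. Of 11 neutrophil genes 4 rose and 1 fell (2 rose without irradiated replicate 3). The call of Ngp, the one that fell, was lost in 18 of the 25 alternative settings that tested it. S100a9 spanned 0.862 to 324 CPM in irradiated tumors.

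Of 17 endothelial genes 1 rose and 1 fell, beside 9.19% higher and 9.1% lower of all genes tested. Their median log2 fold change was -0.19. Icam1, an adhesion molecule that cytokines induce on many cells, was at 17.2 to 47 CPM (median 28.2) in untreated and at 63.8 to 196 CPM (median 99.7) in irradiated tumors (log2 fold change 1.80, SE 0.30, edgeR adjusted p 3.89e-05), while Pecam1 and Cdh5 did not pass the test. Sele, the selectin of activated endothelium, fell by 1.14, and that call was lost in 13 of 26 alternative settings. Among markers of fibroblasts and sarcoma cells, Cd34 fell by 1.32 and Vim by 0.73, and Pdgfra, Col1a1 and the other 7 did not pass the test. None of 12 muscle genes was called, although their median was 2.18, and 3 irradiated tumors lay above the untreated range of Acta1. The same was true of nerve, red cell and liver markers, with no gene called. The part of these cells in the other results was not tested.

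**Figure D4:**
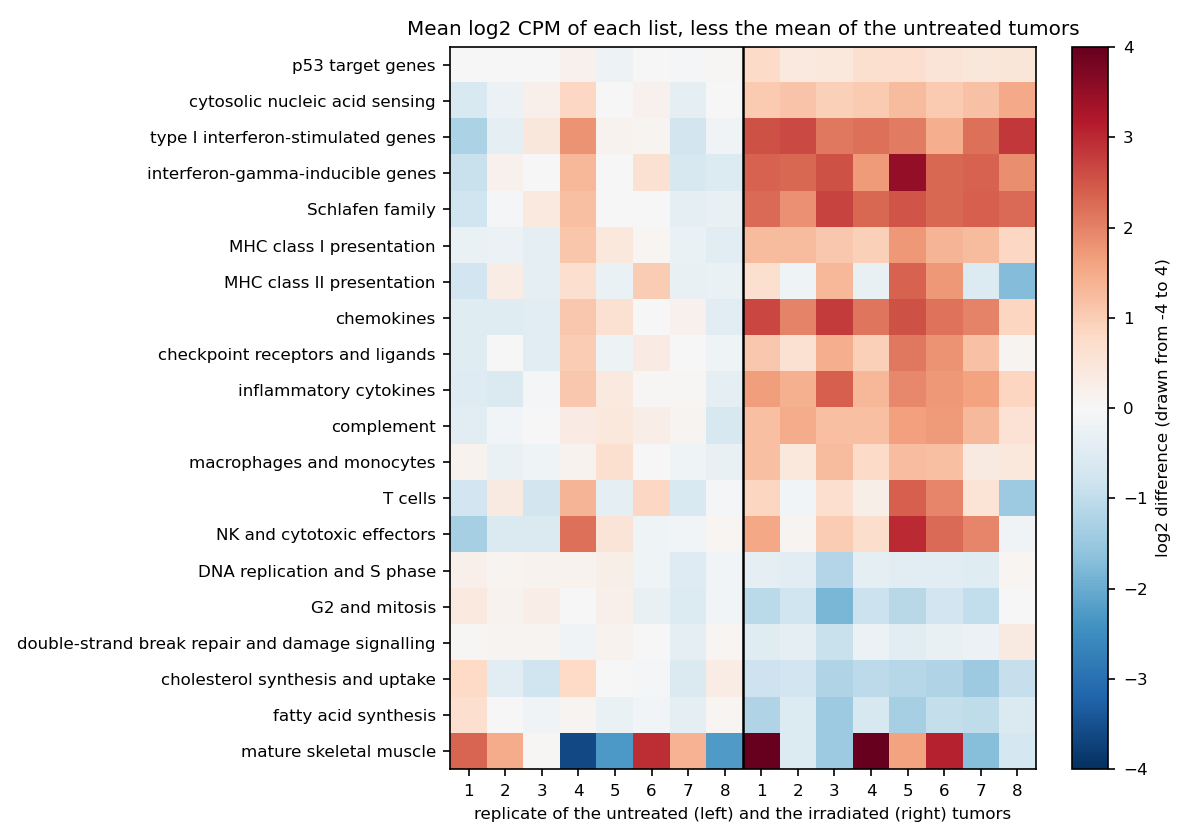
Mean log2 CPM of 20 lists (rows) in each of the 16 tumors (columns, 8 untreated at the left and 8 irradiated at the right), drawn as the difference from the mean of the untreated tumors, red for higher and blue for lower, with colors that end at -4 and 4. Untreated replicate 4 is the untreated tumor with the highest level of the interferon lists, and irradiated replicate 8 stands out by high levels of G2 and mitosis genes and low levels of MHC class II and T cell genes.

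The same dose was compared in primary tumors that received the antibody against PD-1, which share no sample with the tumors above. There 1530 genes were higher (7.92%) and 628 lower (3.25%). Of the 1776 genes higher with isotype, 942 were also higher with anti-PD-1 (53% of the first list and 61.6% of the second), and of the 1758 lower genes 400 (22.8% and 63.7%). The sign was the same for 96.8% of the higher and 93.8% of the lower genes. The changes had smaller medians there, at 0.92 and -0.33, for genes that were chosen by their change with isotype. The median log2 fold change of type I interferon-stimulated genes was 1.70 with anti-PD-1, that of cholesterol synthesis -0.89 and that of G2 and mitosis -0.83. Other lists changed less there. Medians were 1.49 for interferon-γ genes, 0.29 for MHC class II and 0.10 for T cell genes, against 2.31, 0.85 and 0.84 with isotype. Of MHC class I genes 8 were higher, against 18, and of fatty acid genes 4 were lower, against 10. NRF2 targets went the other way, with 6 higher against 1. Irf7 changed by 2.17, Cd274 by 2.27, Hmgcs1 by -1.01, Mcpt2 by -4.56 and Xrcc5 by -0.40. The test of the difference between the antibodies called no gene (0%) in edgeR, with 1168 genes at an unadjusted p under 0.05. DESeq2 called 9 and limma 0.

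In transplant tumors, which grow from the cell line 402230 in the same muscle and were compared in 4 irradiated and 4 untreated libraries, the median of the type I interferon-stimulated genes was 2.33, that of interferon-γ genes 1.51, that of G2 and mitosis -0.36 and that of cholesterol synthesis -0.73. The difference of the radiation effect between primary and transplant tumors was past the threshold for 1 gene (0.00517%), Swap70, a regulator of actin and B cell activation. Its log2 difference was -0.92 (primary minus transplant, edgeR adjusted p 0.0398). In the same edgeR test 1908 genes had an unadjusted p under 0.05. With 4 against 4 transplant tumors, a lack of calls does not show that the 2 models respond alike. The radiation effect on Swap70 was -0.34 in primary and 0.58 in transplant tumors. That call was lost in most alternative settings.

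**Figure D5:**
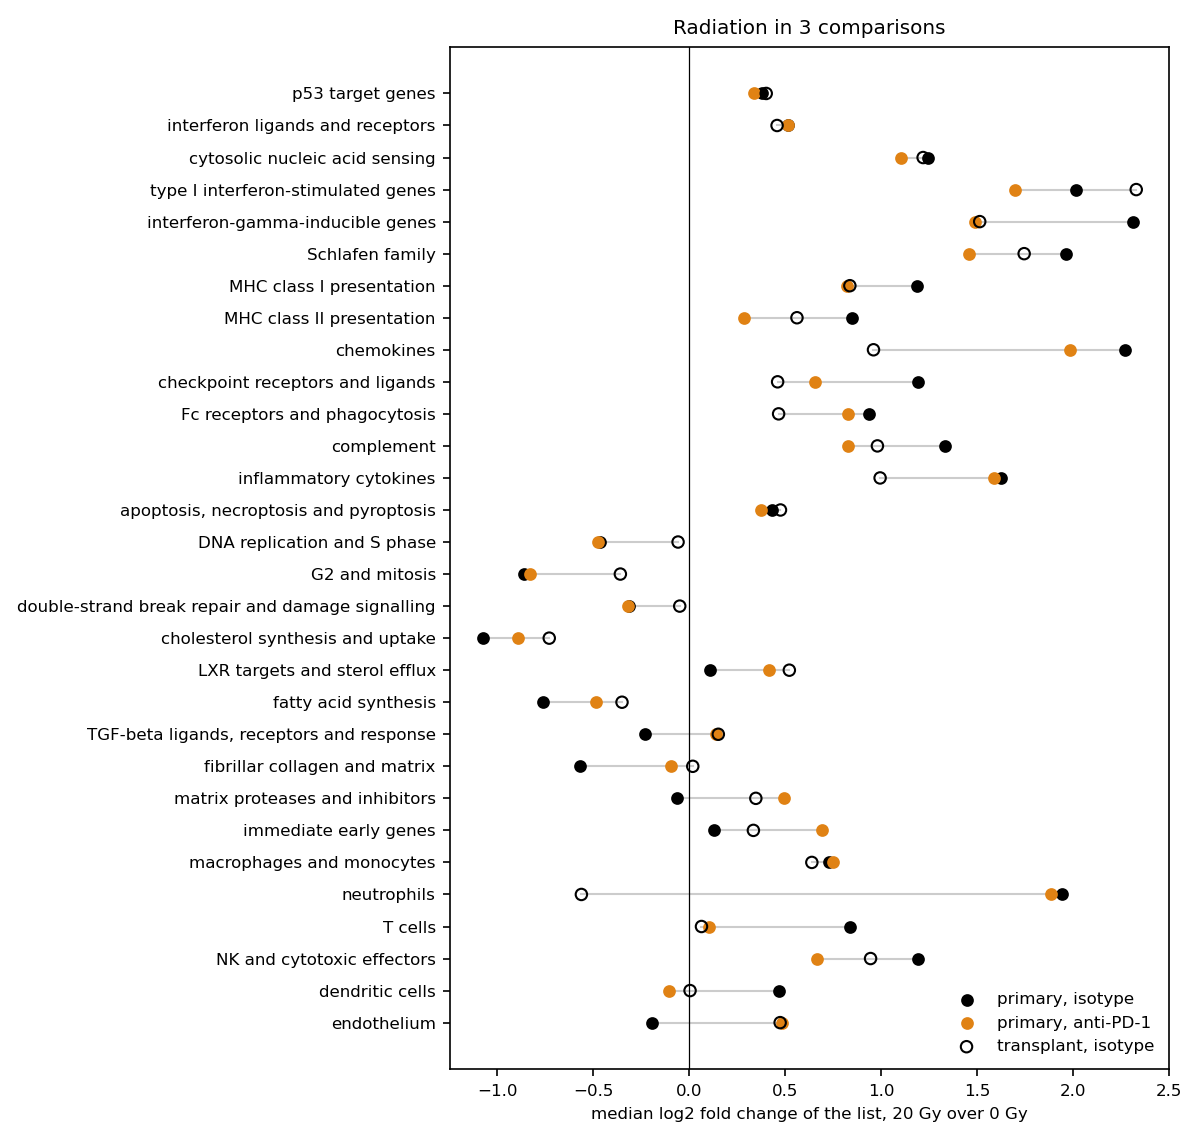
Median log2 fold change at 20 Gy over 0 Gy (x axis) of 30 lists (rows) in primary tumors given isotype (black, 8 against 8), primary tumors given anti-PD-1 (orange, 8 against 8) and transplant tumors given isotype (open circles, 4 against 4). The interferon, chemokine and cytokine lists lie above 0 and the lists of cholesterol synthesis and of G2 and mitosis below 0 in all 3 comparisons.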

How the data were processed

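Total RNA of whole tumors was enriched for poly(A) transcripts, made into stranded libraries and sequenced. The authors used Trimmomatic 0.36 on the reads, STAR for alignment to mm10, and deposited raw counts per gene, made with HTSeq counting on GENCODE annotation, in one table; the strand setting of the counting is not given in the sources used here. The column totals ran from 31810461 to 49181237 counts in the 16 tumors compared, and low counts limit the precision of genes near 0 CPM. Columns were matched to samples by their titles, and groups were taken from the replicate group in the labels; nothing else pairs samples, and replicate numbers follow the order of deposit. No pair of libraries of a group agreed within sampling noise (lowest chi-square per degree of freedom 115.1 over 56 pairs). Gene symbols and coordinates came from a GENCODE annotation of GRCm38 (37408 of 37469 IDs matched), and promoters from RefSeq (GRCm38.p6).

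From there, genes with low counts were dropped with filterByExpr, libraries were scaled by TMM, and the 8 groups of 48 tumors were fitted together with edgeR 4.0.16 (quasi-likelihood, robust) in R 4.3.3. The 2 libraries of the line 402230, a tumor and its cultured cells, stayed out. The standard error (SE) of a log2 fold change is its size divided by the square root of F, and p-values were adjusted by the Benjamini-Hochberg method over all genes tested. CPM are TMM-scaled, and list levels are means of log2 CPM with a prior count of 2. P-values measure the spread between tumors of separate mice. The fit was tested on simulated data.

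The named genes were Trp53, the members of 42 lists and, among called genes with a mean log2 CPM of at least 2, the 15 with the largest changes and the 15 with the smallest p in each direction; the text describes a selection of them, and some genes are not reported here. The members, lists and tests were chosen with earlier results of these data known, so the lists are no independent evidence. Alternatives were a fit of the compared groups alone, RLE and upper-quartile scaling, DESeq2 1.42.0, limma 3.58.1 voom, other filters, the level of muscle genes as a covariate, the tumor of line 402230 as a further untreated library, and each library left out in turn. The covariate for Ddx3y was chosen after seeing the data.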

Additional observations from a re-analysis of the deposited data

Results flagged for a closer look

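In each group of 8 tumors, the gap between the most extreme tumor and its nearest neighbor was divided by the range of the group, on the log2 CPM scale, for genes of the text, the lists and the library measures. Of 454 groups of values, 37 exceeded the 95% limit of Dixon's test, and chance alone passes about 1 in 20.

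Untreated replicate 4 was the highest untreated tumor for Ifnb1 (gap over range 0.631), Isg15 (0.533), Bst2 (0.556), Tap1 (0.561), H2-T23 (0.538), Ly6c2 (0.578) and Pax5 (0.669), and the lowest for genes of smooth muscle and contractile cells (0.552). Replicate 7 was the lowest for Eif4g2 (0.544) and Mre11a (0.637). Replicate 1 was the highest for Scd2 (0.649) and for the fatty acid list (0.555), replicate 3 for Entpd1 (0.542) and for epithelial genes (0.539), and replicate 6 for the share of mitochondrial counts (0.536).

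Among irradiated tumors, replicate 8 was the highest for Rnf31 (0.634), Dlx1 (0.5405) and Sesn2 (0.606) and the lowest for Eif4g2 (0.541), Serping1 (0.534), Ccr7 (0.64), the chemokine list (0.576) and the complement list (0.548). Replicate 3 was the lowest for Depdc1b (0.537), Krt18 (0.598), Cdc25c (0.573), Tk1 (0.5397) and the list of replication and S phase (0.5575), and the highest for Il6 (0.596) and for hypoxia and glycolysis (0.583). Replicate 5 was the highest for Gbp5 (0.616), Il18bp (0.622) and the interferon-γ list (0.539). Replicate 2 was the highest for Mtch1 (0.537), Col1a1 (0.535) and fibroblast genes (0.5679), and the lowest for Nr1h3 (0.602).

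The radiation effect on Swap70 differed between primary and transplant tumors by -0.92 on the log2 scale (SE 0.17, edgeR adjusted p 0.0398). Its mean level went from 99 to 78.4 CPM in primary and from 69.9 to 104.5 CPM in transplant tumors.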

How the results depend on the processing

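Of 182 genes recomputed one by one, 31 lost their call under at least 1 alternative. Of 4727 recomputed values, 4515 kept direction and side of the threshold, 6 gained the call, 1 reversed (Dlx1, with the tumor of line 402230 as an untreated library, log2 fold change -1.60) and the rest lost the call.

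Radiation with isotype changed 2154 genes in a fit of the 16 libraries alone, of which 2017 were shared with the 3534 reported, and 1403 (65.1%) of the 2154 were higher and 751 lower, against 1776 (50.3%) and 1758. RLE and upper-quartile scaling gave 58.5% and 59.4% higher. The other settings gave 2882 to 4198 genes, and leaving out a library 2641 (without irradiated replicate 5) to 4117 (without irradiated replicate 8). With anti-PD-1, 805 genes were changed in a fit of the 16 libraries alone, against 2158. DESeq2 called 9 genes for the difference between the antibodies and the other settings called 0.

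For the difference between primary and transplant tumors, 0 genes were called by the fit of the groups alone, by RLE and upper-quartile scaling, with either other filter and with either covariate, 5 by DESeq2, and 0 to 2 with a library left out, the 2 being without irradiated transplant replicate 3. Upper-quartile scaling moved the median of all genes in that comparison to 0.118. The cause of these differences was not tested. No paired analysis was possible because the labels give no replicate numbers that tie tumors of different groups together.

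Genes below about 1 CPM, such as Ifnb1 and Ifng, rest on few reads per library.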

Other observations

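Other gene families, looked at after their values were seen, add to the description of tumors given 20 Gy and isotype. All 10 tested guanylate binding proteins and all 10 PYHIN genes were higher in edgeR, with median log2 fold changes of 2.38 and 1.86. Receptors of myeloid cells were also higher, with 8 of 11 Cd300 genes (median 1.295), 7 of 8 paired immunoglobulin-like receptors of the Lilr, Pilr and Pirb group (1.81) and 8 of 13 Ms4a genes (1.53). Apolipoprotein L genes were higher in 5 of 9 cases. Among the ADP-ribosyltransferases, Parp9, Parp10, Parp11, Parp12 and Parp14 were higher, whereas Parp1, which marks DNA breaks, and Parp16 were lower. Of 47 replication-dependent histone genes of the Hist1 cluster 14 were higher and none lower, in poly(A)-enriched RNA. Kinesins were lower in 13 and higher in 2 of 36 cases and centromere proteins in 6 of 21. In contrast, 1 of 75 cytosolic ribosomal proteins (Rpl4), 1 of 77 mitochondrial ribosomal proteins (Mrps5) and 1 of 46 genes of complex I (Ndufaf7) were called, all lower. Of 38 proteasome genes, the higher ones were Psmb8, Psmb9 and Psmb10, and Psmd1 and Psmd5 were lower.

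The fall of Mcpt2 was not matched by calls in other genes of mast cells. Of 12 such genes, looked at after Mcpt2 was seen, Mcpt2 was the one called. Cpa3, the carboxypeptidase of connective tissue mast cells, had a log2 fold change of -0.83, the tryptases Tpsb2 and Tpsab1 -1.08 and -0.87, the chymases Mcpt4 and Cma1 -0.82 and -0.65, and Kit, the receptor for stem cell factor, -0.54, and none of these passed the test. Hdc, which makes histamine, was at 1.44 (edgeR adjusted p 0.0878). Whether these changes differ from that of Mcpt2 was not tested.

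Calls in the lists not described above stand beside 9.19% higher and 9.1% lower of all genes tested. Lmnb1, a protein of the nuclear lamina that falls in senescent cells, was lower (-0.81), and of the other 15 genes of senescence and its secretion Ccl2, Il6 and Tnfrsf1b were higher. Pax5 was the B cell marker called of 8 (2.10), Lipe the adipose gene called of 6 (0.74) and Myh11 the contractile gene called of 12 (edgeR adjusted p 0.0472), a call lost in 14 of 26 alternative settings.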
